A study of Mus musculus with 4 samples.

Results

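Triple sites were the places in the mouse embryonic stem cell genome where a cohesin peak met both CTCF and H3K4me3. A triple site was an autosomal peak of the cohesin subunit RAD21 that overlapped, by at least 1 bp each, a peak of the histone mark H3K4me3 and a peak of CTCF. By this rule 3061 of 74004 autosomal RAD21 peaks were triple sites, or 4.14% (Wilson 95% interval 4.00 to 4.28%, which covers counting error only). CTCF and H3K4me3 need not touch each other. The CTCF peak that RAD21 overlapped most also overlapped H3K4me3 at 2643 of the 3061 sites. The closest class for comparison was the 4157 RAD21 peaks that overlapped H3K4me3 and no CTCF peak. A further 38326 RAD21 peaks overlapped CTCF without H3K4me3. The members were chosen by where the 3 lists overlapped, so the number of sites, the amount of overlap and the peak lengths that enter it are described here without a test.

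The peaks came from ChIP-exo, in which an exonuclease trims immunoprecipitated DNA towards the crosslinked protein, in Bruce-4 cells, an embryonic stem cell line from C57BL/6J mice kept in serum/2i/LIF. Each of the 4 libraries was made from 10000000 cells fixed with 1% formaldehyde for 10 min, with 1 antibody each for H3K4me3 (1 library), CTCF (2 libraries, 1 union list) and RAD21 (1 library). All 3 lists therefore describe the same unperturbed line, with no treated or mutant group, and each exists once, so no spread between cultures could be measured. The lists give positions without depth or height, and where a peak is missing it shows only that none was called.

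The autosomal lists held 21006 H3K4me3 peaks with a median length of 683 bp, 50546 CTCF peaks with a median of 104 bp and 74004 RAD21 peaks with a median of 141 bp. As a check of the cell type, 9 of 10 stem cell markers, among them Nanog, Pou5f1 and Sox2, had H3K4me3 within 1 kb of a gene end. The exception was Esrrb. The mark was present at 1 of 8 fibroblast markers (Thy1) and at 2 of 8 markers of differentiated tissue (Cd3e and Myod1).

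Cohesin is a ring of SMC1, SMC3, RAD21 and a STAG subunit that extrudes loops of chromatin, and CTCF is a zinc finger protein that binds a long DNA motif and halts cohesin on 1 side of it. H3K4me3 is placed around transcription start sites by the SET1 and MLL families of methyltransferases, mostly at promoters rich in CpG. CTCF at promoters is known from work on loops between promoters and enhancers, on imprinted genes and on the choice of protocadherin promoters.

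The CTCF core letters appear in the promoters of several triple sites, and the promoters printed here place them against the gene start. The sequences are RefSeq promoters of GRCm38.p6 (mm10 is another name for it), each running from 250 bases before to 50 bases after the start, 5′ to 3′ on the strand of the gene. Capitals mark the core, which was searched on both strands as CC, any 3 bases, AG, any 2 bases and GGC, or its reverse complement where it lies on the other strand. Each core lay inside the CTCF peak of a triple site. Pds5b, which encodes a cohesin regulator, and H13, an imprinted gene for a signal peptide peptidase, are on the plus strand. Mrpl17, for a mitochondrial ribosomal protein, and Psmc4, for a proteasome ATPase, are on the minus strand.
Pds5b, chr5:150673577-150673876, plus strand: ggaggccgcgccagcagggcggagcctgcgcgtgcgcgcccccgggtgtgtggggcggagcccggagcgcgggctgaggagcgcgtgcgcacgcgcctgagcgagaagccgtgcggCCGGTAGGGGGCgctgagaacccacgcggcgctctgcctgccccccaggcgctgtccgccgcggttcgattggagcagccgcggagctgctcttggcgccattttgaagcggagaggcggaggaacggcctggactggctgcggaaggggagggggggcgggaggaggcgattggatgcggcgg
H13, chr2:152669211-152669510, plus strand: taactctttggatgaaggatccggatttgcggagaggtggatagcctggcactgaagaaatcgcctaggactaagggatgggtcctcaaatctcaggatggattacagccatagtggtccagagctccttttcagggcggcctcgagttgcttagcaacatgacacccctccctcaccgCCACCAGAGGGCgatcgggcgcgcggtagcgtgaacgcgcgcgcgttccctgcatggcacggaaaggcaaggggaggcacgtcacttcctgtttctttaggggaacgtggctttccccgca
Mrpl17, chr7:105811038-105811337, minus strand: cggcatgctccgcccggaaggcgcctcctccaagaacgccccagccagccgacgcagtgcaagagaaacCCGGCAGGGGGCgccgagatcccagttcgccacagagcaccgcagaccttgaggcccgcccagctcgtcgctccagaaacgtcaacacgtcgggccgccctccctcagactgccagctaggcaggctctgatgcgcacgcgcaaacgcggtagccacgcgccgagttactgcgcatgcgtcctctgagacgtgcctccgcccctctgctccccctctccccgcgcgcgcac
Psmc4, chr7:28050043-28050342, minus strand: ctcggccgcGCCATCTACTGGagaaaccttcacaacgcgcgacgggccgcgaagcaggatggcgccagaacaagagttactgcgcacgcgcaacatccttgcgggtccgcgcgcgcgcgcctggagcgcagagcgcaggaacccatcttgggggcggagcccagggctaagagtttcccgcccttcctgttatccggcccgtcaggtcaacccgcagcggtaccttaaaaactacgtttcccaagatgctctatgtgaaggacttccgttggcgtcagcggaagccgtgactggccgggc

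In 3 of these 4 promoters the core read in the direction of the gene, with its first base 134 bp before the start at Pds5b, 71 bp before it at H13 and 181 bp before it at Mrpl17. At Psmc4 the core lay on the opposite strand, near the far end of the promoter. All 4 RAD21 midpoints lay outside the H3K4me3 peak that the site touched, which was so at 32.7% of all triple sites. At Polr2j and Steap1, the other named promoters with a match, the midpoint lay inside it. The windows around the core are turned to the strand of the core, with the core in capitals. They allow the letters at all 6 named promoters with a match in a CTCF peak to be compared. These include Polr2j, an RNA polymerase II subunit gene, and Steap1, a gene for a metalloreductase of the membrane. The Steap1 core was counted inside a CTCF peak. It lay outside the CTCF peak that RAD21 overlapped most there, chr5:5750003-5750212.
Pds5b, chr5:150673683-150673714, plus strand: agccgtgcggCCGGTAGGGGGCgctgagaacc
H13, chr2:152669380-152669411, plus strand: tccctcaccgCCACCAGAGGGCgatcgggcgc
Polr2j, chr5:136116609-136116640, plus strand: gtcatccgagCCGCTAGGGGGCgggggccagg
Mrpl17, chr7:105811247-105811278, minus strand: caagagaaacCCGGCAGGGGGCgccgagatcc
Steap1, chr5:5749370-5749401, minus strand: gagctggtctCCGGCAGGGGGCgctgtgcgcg
Psmc4, chr7:28050312-28050342, plus strand: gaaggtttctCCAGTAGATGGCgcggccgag

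Over the whole set, a CTCF peak of a triple site covered at least 12 bp of 933 promoters of protein-coding genes, and 304 of those promoters held the core on either strand (32.6%, 95% interval 29.7 to 35.7%). Of all 20063 protein-coding promoters of the same length, 2022 held it (10.1%). The match lay inside the CTCF peak itself in 236 of the 933 (25.3%). The matches were thus gathered under the CTCF peaks. Per kb there were 2.10 matches inside the CTCF peaks, 0.581 in the rest of the same promoters and 0.362 in all promoters. A match is a run of letters and not a measured binding site, and the other promoters lacked only these letters in the 300 bases searched.

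Core matches inside these CTCF peaks ran mostly with the gene. On the gene's strand lay 170 of 248 matches (68.5%, 95% interval 62.5 to 74.0%). In promoters without the CTCF peak of a triple site it was 990 of 1839 (53.8%, 51.5 to 56.1%). Outside the peaks but in the same promoters it was 45 of 94 (47.9%, 38.1 to 57.9%). The share was 68.9% upstream of the start (155 of 225, 62.6 to 74.6%). Downstream of it the share was 65.2%, on few matches (15 of 23, 44.9 to 81.2%). A further count took each distinct match once and left out promoters overlapping one on the other strand. There 152 of 222 matches (68.5%) were on the gene's strand. The strand of the core was looked at after other values of these data were known.

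Most triple sites lay at or beyond the edges of H3K4me3 peaks, and the smallest share in their centres. Each site was assigned to the H3K4me3 peak it overlapped most, and the midpoint of RAD21 was placed outside that peak, in its central part or in the flanks. The central part was the middle 33.3% of the peak's length, and the flanks were the rest on both sides. It was outside at 1002 sites (32.7%, 95% interval 31.1 to 34.4%, SD over 19 autosomes 3.82), in the flanks at 1515 (49.5%) and in the central part at 544 (17.8%, 16.5 to 19.2%, SD 3.38). Autosomes are not replicates, and their SD shows only how even the share was along the genome. RAD21 peaks at H3K4me3 without CTCF were placed differently. Their midpoint was outside at 621 of 4157 (14.9%, 13.9 to 16.1%) and in the central part at 1280 (30.8%, 29.4 to 32.2%).

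Midpoints in the central part were less frequent at triple sites (difference from RAD21 without CTCF -13 percentage points, 95% interval -15.0 to -11.1), and were less frequent on 19 of 19 autosomes. Midpoints outside the peak were more frequent on 19 of 19 autosomes, by a mean of 17.6 points (SD 5.04). Among midpoints inside the peak, the central part held 26.4% at triple sites and 36.2% without CTCF, against 33.3% for even placement. The sites outside were divided evenly between the left and right sides of the H3K4me3 peak, which carry no meaning without the direction of a gene.

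**Figure D1:**
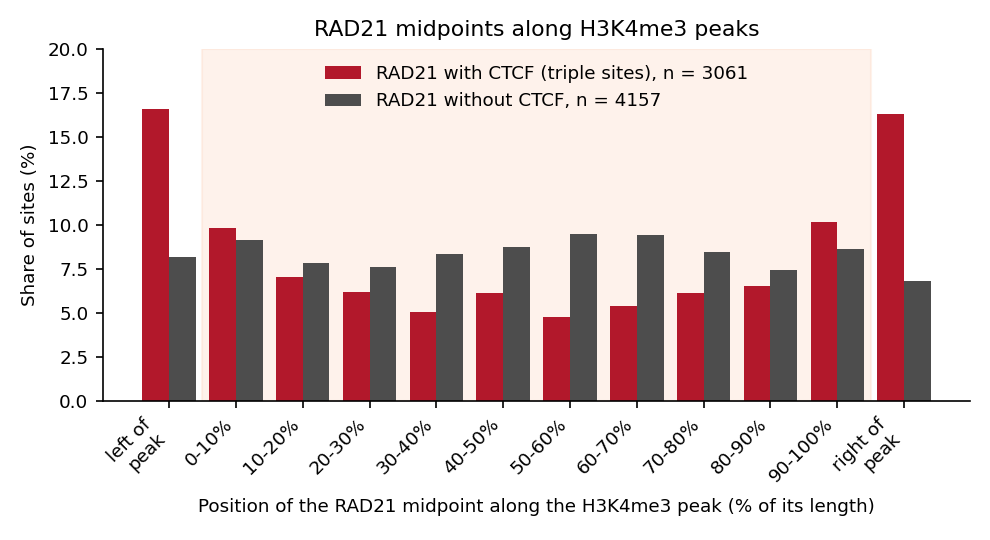
Share of sites (%) by the place of the RAD21 midpoint along the H3K4me3 peak, from its left to its right edge in percent of its length, for the 3061 triple sites and the 4157 RAD21 peaks at H3K4me3 without CTCF. Triple sites were most frequent beyond and near the edges, with 17.8% of midpoints in the central part against 30.8% without CTCF.

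The RAD21 peak itself ran across an edge of the H3K4me3 peak at 2024 triple sites (66.1%, 95% interval 64.4 to 67.8%) and at 33.6% of RAD21 peaks without CTCF, a difference of 32.5 points (30.3 to 34.7). The remaining 1037 triple sites (33.9%) lay wholly inside. At 79 triple sites (2.58%) RAD21 covered the whole H3K4me3 peak, which was so at 3 of the 4157 peaks without CTCF. These are sites where a short H3K4me3 peak sat within a long cohesin peak. The midpoint was within 100 bp of an edge at 54.8% of triple sites and at 38.2% without CTCF.

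A long RAD21 peak reaches an edge more easily, so the 2 classes were also compared within 4 groups of about equal size by length. Triple sites with RAD21 peaks in the shortest group, up to 101.25 bp, had 28.8% of midpoints in the central part (105 of 365, 24.4 to 33.6%), close to the 30.9% (28.6 to 33.3%) without CTCF. In the next 3 groups the shares were 15.6, 13.1 and 18.8% at triple sites and 29.3, 29.6 and 35.4% without CTCF. The gap between the classes was therefore found in the 3 longer groups, while the intervals overlapped in the shortest. In the shortest group RAD21 crossed an edge at 26.0% of triple sites (21.8 to 30.8%) and at 20.9% without CTCF (18.9 to 23.1%).

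The length of the H3K4me3 peak bore on position as well. In H3K4me3 peaks up to 431 bp long, 43.7% of triple sites had their midpoint outside and 14.1% in the central part, and without CTCF it was 35.1 and 17.0%. In peaks over 1000 bp, 22.5% of triple sites were outside and 20.7% in the central part, and without CTCF it was 6.59 and 37.8%. The central shares of the 2 classes were thus closest in short H3K4me3 peaks and farthest apart in long ones.

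The rule keeps only peaks that touch H3K4me3, so the surroundings of the edges were also scanned with every RAD21 peak nearby, members or not. RAD21 midpoints with CTCF were densest in the 100 bp just outside an edge, at 24.8 per 1000 edges per 100 bp, and were sparser on both sides. Inside they numbered 20.2 in the first 100 bp, 12.6 in the next and 7.77 at 500 to 600 bp. Outside they numbered 15.4 at 100 to 200 bp, 9.01 at 200 to 300 bp and between 3.27 and 4.07 from 400 to 1000 bp. Without CTCF the density was 19.2 just outside, 24.4 just inside and still 25 at 500 to 600 bp inside. Only long H3K4me3 peaks have a deep interior. The edges available fell from 42012 in the first 100 bp inside to 8113 at 500 to 600 bp. Per available edge, cohesin with CTCF was sparser in the interior than at the edges. Cohesin without CTCF was as dense in the interior as at the edge. Edge and interior were not compared over the same H3K4me3 peaks. This profile was added after seeing the data.

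**Figure D2:**
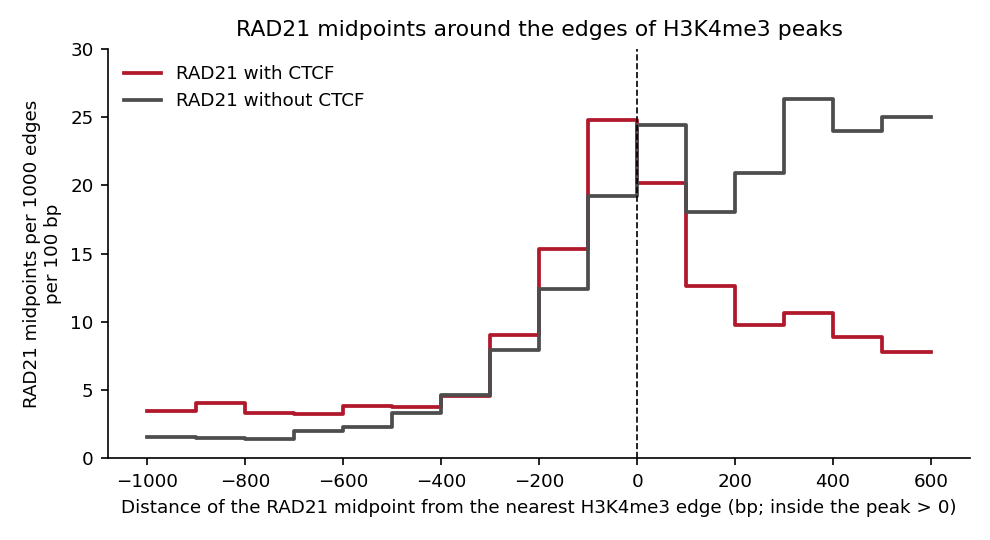
RAD21 midpoints per 1000 H3K4me3 edges per 100 bp against the distance from the nearest edge in bp (inside the peak above 0), for RAD21 peaks with and without CTCF, whether or not they overlap H3K4me3. With CTCF the density was highest just outside the edge (24.8) and 7.77 at 500 to 600 bp inside, where it was 25 without CTCF. The bins deep inside hold long H3K4me3 peaks only.

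The direction of the gene separated the 2 edges. Starts with a strand were given for 16457 protein-coding genes on 18 autosomes, chromosome 18 being without any, and 1434 triple sites had their RAD21 midpoint within 1 kb of one. The midpoint lay upstream of the start at 832 of them (58.0%, 95% interval 55.4 to 60.5%, SD over 18 autosomes 6.11). Without CTCF it lay upstream at 1118 of 2468 (45.3%, 43.3 to 47.3%). Counted from the start and positive downstream, the median position was -41.25 bp at triple sites (quartiles -182 and 184) and 15.5 bp without CTCF.

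Within 1 kb of a start, triple sites lay past the upstream edge of the H3K4me3 peak more often than past the downstream edge. The 1 kb limit favours this order in both classes, because it leaves more room past the upstream edge. H3K4me3 peaks that covered a start and held a triple site reached a median of 221 bp upstream and 694 bp downstream of it. The midpoint was past the upstream edge at 342 of 1434 sites (23.8%, 95% interval 21.7 to 26.1%, SD 5.14) and past the downstream edge at 79 (5.51%, 4.44 to 6.81%). Without CTCF these were 223 of 2468 (9.04%, 7.97 to 10.2%) and 77 (3.12%, 2.5 to 3.88%). The upstream flank held 34.9% of triple sites, the central part 19% and the downstream flank 16.8%, and without CTCF these shares were 37.8, 32.1 and 18%. So the 2 classes were close in the upstream and downstream flanks, and their intervals lay apart in the central part and past both edges, with the wider gap past the upstream edge. Leaving out sites with a start on the other strand within 1 kb gave 25.2% past the upstream edge and 5.15% past the downstream edge. Orientation was examined after other values of these data were known.

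**Figure D3:**
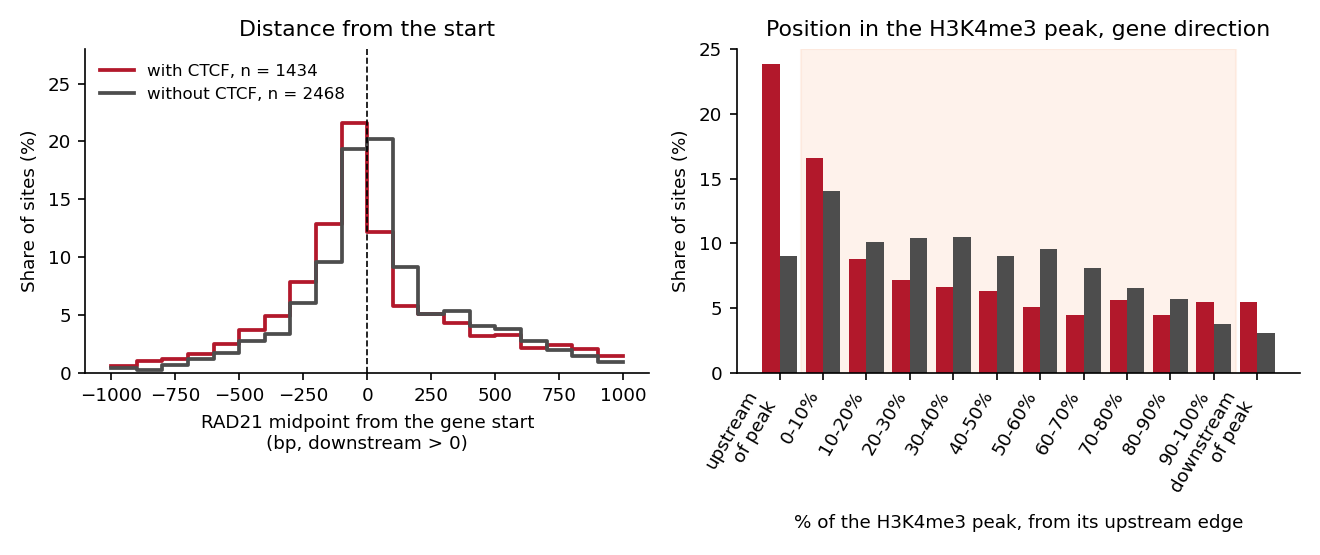
Left, share of sites (%) by the distance of the RAD21 midpoint from the nearest protein-coding gene start in bp, downstream above 0. Right, share of sites (%) by place along the H3K4me3 peak in the direction of the gene, with the peak shaded. Of the 1434 triple sites, 23.8% were past the upstream edge, against 9.04% of the 2468 sites without CTCF.

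The H3K4me3 peaks over a start were not symmetrical in any class. Those with a triple site reached a median of 221 bp upstream and 694 bp downstream of the start (n = 991 starts). Peaks with RAD21 and no triple site reached 274 and 700 bp, and peaks without RAD21 reached 171 and 698 bp. The downstream reach was nearly the same in all 3. The upstream reach with a triple site was shorter than with RAD21 alone on 13 of 18 autosomes, and longer than without RAD21 on 11 of 18. Where the triple site lay upstream of the start, the median upstream reach was 271 bp (n = 615). Where it lay downstream, the reach was 143 bp (n = 344). The rule favours this order, because a site upstream must touch the peak, which then has to reach it.

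Within a triple site the RAD21 midpoint lay a median of 45.5 bp from the CTCF midpoint (quartiles 19 and 86), and in RAD21 peaks with CTCF only the median was 32 bp. RAD21 was on the side of the H3K4me3 centre at 1825 of 3049 sites with unequal midpoints (59.9%). The rule asks RAD21, and not CTCF, to reach H3K4me3, which favours that side. At the 902 sites with both peaks wholly inside H3K4me3 it was 54.7% (51.4 to 57.9%). Along the gene, RAD21 was downstream of CTCF at 761 of 1430 sites (53.2%, 50.6 to 55.8%), a near even division.

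Against the core letters, RAD21 lay on the 3′ side of the CTCF midpoint at 124 of 209 sites (59.3%, 52.6 to 65.8%). Its midpoint was past the 3′ side of the core itself at 120 of 210 (57.1%, 50.4 to 63.6%). The CTCF midpoint was divided evenly around the core, at 100 of 207 (48.3%, 41.6 to 55.1%). The lean of RAD21 was slight, with a lower bound just above an even division, and the core was only searched for in promoters.

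Triple sites had long cohesin peaks. The median RAD21 length was 226 bp (quartiles 140 and 349, range 71 to 1123), against 140 bp at H3K4me3 without CTCF and 180 bp with CTCF only. The median at triple sites was higher on 19 of 19 autosomes, by a mean of 85.8 bp (SD 21.4) from the first class and 44.1 bp (SD 18.2) from the second. Longer peaks overlap more by their length alone, so this order is in part what the rule selects. The shortest length in the list, 71 bp, was that of 93 triple sites (3.04%), of 19.5% of RAD21 peaks at H3K4me3 without CTCF and of 2.65% with CTCF only.

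**Figure D4:**
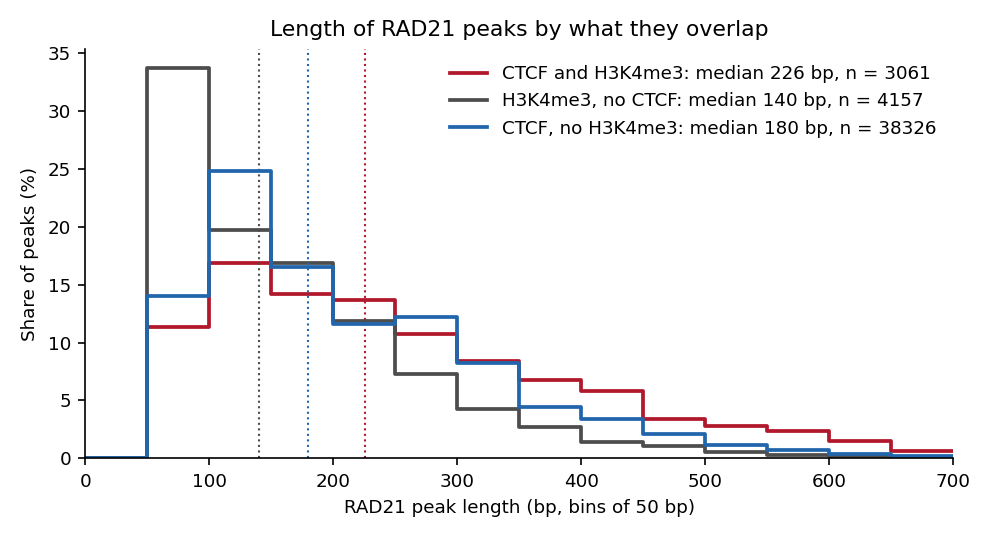
Share of RAD21 peaks (%) by length in bins of 50 bp, for triple sites and for RAD21 peaks with H3K4me3 only and with CTCF only. The triple sites, with a median of 226 bp, extend farther to the right than the classes with medians of 140 and 180 bp.

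The CTCF peaks at triple sites were long too, with a median of 173 bp against 117 bp at RAD21 peaks with CTCF only, and longer on 19 of 19 autosomes. They lay wholly inside the RAD21 peak at 44.6% of triple sites and at 55.5% of the sites without H3K4me3. H3K4me3 peaks that held a triple site had a median of 729 bp (quartiles 453 and 1055). That was shorter than H3K4me3 peaks with RAD21 and no triple site, at 813 bp, on 17 of 19 autosomes, and longer than those without RAD21, at 636 bp, on 17 of 19. The share of H3K4me3 peaks with a triple site was 12.7, 13.1, 14.4 and 16.2% from the shortest to the longest of 4 groups of about equal size, a mild slope.

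The overlap with H3K4me3 had a median of 131 bp and that with CTCF 123 bp. At the limit of the rule, 78 triple sites shared only 1 to 10 bp with H3K4me3, with a median RAD21 length of 154.5 bp. Just outside it, 96 RAD21 peaks with CTCF ended under 10 bp short of H3K4me3, with a median of 159 bp. For CTCF, 18 sites shared 1 to 10 bp, and 16 RAD21 peaks at H3K4me3 stopped under 10 bp short. A site just inside and one just outside the limit were therefore of similar length.

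The longest RAD21 peak of all triple sites, 1123 bp at chr5:134965584-134966706, lay 18650 bp from Cldn4, the gene of a tight junction claudin, and covered a H3K4me3 peak of 466 bp. The second, 1097 bp at chr16:42190006-42191102, lay 8327 bp from Lsamp, which encodes a neural cell adhesion protein, over a H3K4me3 peak of 460 bp. At Fh1, the fumarate hydratase gene, an 841 bp RAD21 peak at chr1:175625510-175626350 reached the end of the gene, with its midpoint at -278.5 bp from the H3K4me3 edge (inside the peak positive). The 862 bp peak at Pcdhgc3, a gene of the protocadherin gamma array, ran across an edge of an 801 bp H3K4me3 peak. Other sites among the 10 longest lay near Csgalnact1 (870 bp), for an enzyme of chondroitin sulfate synthesis, Ndst1 (828 bp), for an enzyme of heparan sulfate synthesis, Myl3 (829 bp), for a myosin light chain, and Psd2 (827 bp). All 10 ran across a H3K4me3 edge, and 5 of the 10 lay over 1 kb from the gene they are named by.

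The 5 longest RAD21 peaks with the midpoint in the central part did not lie within the mark. Each covered a whole H3K4me3 peak, of 294 to 572 bp, and ran past both of its edges. After Lsamp and Psd2 came a site 20572 bp from Gm30593 (801 bp), one 12381 bp from Tiam1 (788 bp), which encodes an activator of the GTPase Rac, and one 1896 bp from H19 (779 bp). The last, at chr7:142580042-142580820, lay beside the imprinted lncRNA gene H19, and its H3K4me3 peak was 294 bp long, the shortest length in that list. Its CTCF peak did not touch that H3K4me3 peak. None of these 5 lay within 1 kb of the gene it is named by.

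The widest H3K4me3 peaks with a triple site held RAD21 in several places. The widest of all, 2281 bp, held a RAD21 peak of 107 bp with its midpoint 636.5 bp from the edge, and this RAD21 peak lay 10980 bp from the nearest gene end, that of Tmpo, a gene for a protein of the nuclear lamina. At Tbx3, a T-box factor active in naive stem cells, the RAD21 peak was 514 bp and its midpoint at -202 bp, outside the 2268 bp peak. Tle3, a Groucho co-repressor, and Rnd3 also had a site with the midpoint outside, and Hira, a chaperone of histone H3.3, had one in the flanks. Others among the 10 widest, at Wasf1, Mirc35hg, Slc43a2 and Med12l, had theirs in the flanks too.

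Most H3K4me3 peaks had 1 triple site. Of the 2968 that held any, 2863 had 1, 104 had 2 and 1 had 3. The peak with 3 was 1089 bp long, within the lncRNA gene Gm39635 on chromosome 1, with RAD21 peaks of 171, 162 and 71 bp. Among the longest with 2 were those at Rnd3, Zfp809, a zinc finger repressor of retroviruses, Hdlbp, an RNA-binding protein gene, and Cebpd, a transcription factor gene. At Rnd3, Zfp809, Tmem11 and Cebpd 1 of the 2 midpoints lay outside the peak and the other inside.

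The opposite case, 1 RAD21 peak that bridged 2 H3K4me3 peaks, was found at 13 sites. The set was chosen after its values were seen. By their nearest genes they were Rtf2, Chek2 (a kinase of the DNA damage response), Wwc2, Marcks, Slc16a9, Morc2a, Narf, Arl4a, Map4k5, Ecd, Gm46850, 1700003G18Rik and 6030440G07Rik. The longest RAD21 peak was 659 bp near Marcks, which encodes a substrate of protein kinase C, and the shortest 231 bp at Narf. At 10 of the 13 RAD21 touched a gene end.

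Along the genome the sites were scattered. Successive triple sites on a chromosome lay a median of 250212 bp apart (quartiles 79423 and 750715), and 112 of 3042 intervals were within 2 kb. The share of RAD21 peaks that were triple sites was between 3.38% on chromosome 3 and 5.37% on chromosome 7 (SD over autosomes 0.620). The share of H3K4me3 peaks with one ran from 12.2% on chromosome 17 to 15.9% on chromosome 6 (SD 1.18). Chromosomes thus differed little in how much of their H3K4me3 held a triple site.

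Gene ends held the largest share of triple sites, a majority at a window of 1 kb and 49.9% at 500 bp. Within 1 kb of a terminus of a coding or lncRNA gene lay 1900 (62.1%, 95% interval 60.3 to 63.8%), inside a gene away from its ends 723 (23.6%), and between genes 438 (14.3%). H3K4me3 is placed around transcription start sites, and the gene ends counted here take in the starts. The class without CTCF had a higher share at gene ends, 2924 of 4157 (70.3%, 68.9 to 71.7%). With CTCF only it was 11%. The share at gene ends was thus smaller than for other cohesin at H3K4me3, and the share between genes larger, at 14.3% (13.1 to 15.6%) against 9.98% (9.11 to 10.9%). Protein-coding starts alone were within 1 kb of 1464 of 2964 triple sites (49.4%) and of 61.4% of sites without CTCF.

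Of the 1161 triple sites away from these gene ends, 22 lay within 1 kb of a tRNA gene, 20 of a pseudogene and 5 of a miRNA gene. Without CTCF it was 11, 27 and 2 of 1233. A few sites were remote from every gene end. The remotest, a RAD21 peak of 606 bp on chromosome 3, was 354973 bp from the nearest gene end, that of Gm33551. Those at Dpyd, for an enzyme that breaks down pyrimidines, Rims1, for a protein of the synaptic active zone, and Dab1, for an adaptor of reelin signalling, were 337194, 247217 and 229798 bp from an end.

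Paired gene ends made up a smaller share of triple sites than of cohesin sites without CTCF. The ends of 2 or more genes were within 1 kb at 449 of the 1900 sites at an end (23.6%, 21.8 to 25.6%), against 28.2% without CTCF (26.6 to 29.8%) and 11.3% with CTCF only. Starts on both strands were within 1 kb at 115 of 1464 sites at a start (7.86%, 6.58 to 9.35%) and at 322 of 2478 without CTCF (13%, 11.7 to 14.4%). Where the ends of 2 protein-coding genes were both within 1 kb, they were a median of 217.5 bp apart at triple sites (quartiles 70.25 and 472.5, n = 240) and 143 bp without CTCF (n = 501). The pairs at triple sites were therefore fewer in share and wider apart.

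The longest RAD21 peaks between paired ends included 609 bp in the 871 bp between Ppfia3 and Lin7b on chromosome 7, a pair of genes for synaptic scaffold proteins. A peak of 491 bp lay at the 623 bp between Zbtb32 and Kmt2b, the latter a methyltransferase that places H3K4me3. Others lay between Cnr2, a cannabinoid receptor gene, and Fuca1, a fucosidase gene (470 bp peak, 506 bp gap), Madcam1 and Tpgs1 (388 bp, 896 bp gap), and Pcid2 and Cul4a, a cullin gene (365 bp, 279 bp gap). The wider view gave another order. For the 1327 triple sites outside protein-coding genes the gap between the flanking genes had a median of 36240 bp, against 52769.5 bp without CTCF and 92848 bp with CTCF only. Triple sites outside protein-coding genes thus lay in shorter gaps, although gaps up to 1 kb held 2.71% of them and 4.58% without CTCF. They are a larger set than the 438 sites between genes given above.

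A triple site lay within 1 kb of an end of 1859 of 20665 autosomal protein-coding genes, a background of 9.00%. Of the 11977 genes with H3K4me3 at an end, 1854 had one, a background of 15.5%. Of the same 20665 genes, 2982 had cohesin at H3K4me3 without CTCF, and 216 had both kinds. Whether 216 is more or less than unrelated placement would give was not tested. The gene lists that follow are read against these backgrounds, and no list was tested.

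Among subunits of the proteasome, which degrades proteins, 7 of 32 genes had a triple site (21.9%, 95% interval 11 to 38.8%). The RAD21 peak was 526 bp at Psmc6, 482 bp at Psmc4, 293 bp at Psmd7 and 262 bp at Psmd1, and Adrm1 and Psma1 were among those without. General transcription factors and Mediator had 11 of 53 (20.8%), with Med20 (508 bp), Med13 (363 bp), Med19 (283 bp) and Med18 (269 bp), all Mediator subunits. Subunits of RNA polymerase II had 3 of 12: Polr2i (419 bp), Polr2j (233 bp) and Polr2h (105 bp), with an interval of 8.89 to 53.2%. At Polr2i, Polr2h and Med20 the nearest gene end belonged to another gene (Ovol3, Clcn2 and Bysl), so those sites cannot be assigned to the listed gene alone. Nearly all of these genes carry H3K4me3, and beside the 15.5% of marked genes the shares were 23.3, 21.6 and 25%.

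Ribosomal protein genes differed by compartment in their counts. Those of the mitochondrial ribosome had triple sites at 16 of 78 (20.5%, 13 to 30.8%), with RAD21 peaks of 692 bp at Mrps26, 434 bp at Mrpl17, 301 bp at Mrpl39 and 259 bp at Mrpl27. Those of the cytosolic ribosome had them at 9 of 75 (12%, 6.44 to 21.3%), with 476 bp at Rpl4, 280 bp at Rps26 and 220 bp at Rpl37. The intervals of the 2 lists overlap widely. Of the genes with H3K4me3 the shares were 21.6% (mitochondrial) and 12.5% (cytosolic), beside the 15.5% of marked genes. At Rpl4, Rpl37, Mrps26 and Mrpl27 the nearest gene end belonged to another gene, so the site cannot be assigned to the ribosomal gene alone.

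The clustered protocadherins, cell surface proteins whose alternative promoters are known targets of CTCF, had the highest share of the 15 lists, with an interval that overlapped those of several others. A triple site lay at 16 of 57 genes (28.1%, 18.1 to 40.8%), with 16 sites in all, and at 16 of the 19 genes with H3K4me3 (84.2%). The RAD21 peak was 862 bp at Pcdhgc3, 444 bp at Pcdhga9, 389 bp at Pcdhgb1 and 326 bp at Pcdhga6. Most genes of the list, among them Pcdha10 and Pcdha11, had no triple site, and 38 of the 57 had no H3K4me3 peak at an end. The genes lie side by side on chromosome 18 and are not independent of each other.

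Genes with a Zfp number, most of which encode zinc finger proteins, had 42 of 360 (11.7%, 8.75 to 15.4%), and of those with H3K4me3 14.7%, close to the background. The longest RAD21 peaks there were 825 bp at Zfp763, 728 bp at Zfp882, 685 bp at Zfp658 and 562 bp at Zfp54. Imprinted genes, expressed from 1 parental copy, had 5 of 33 (15.2%, 6.65 to 30.9%) from 4 sites, and of those with H3K4me3 21.7%. Sgce and Peg10, which start side by side, shared 1 site with a 328 bp RAD21 peak, and Trappc9 (231 bp), Copg2 (227 bp) and H13 (121 bp) had 1 each. All 4 sites had their midpoint outside the H3K4me3 peak.

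Of the genes that build or steer cohesin, 3 of 17 had a triple site (17.6%, 6.19 to 41.0%). They were Pds5b (258 bp), Esco1 (190 bp), which acetylates the SMC3 subunit, and Ctcf itself (170 bp). With so few genes that interval takes in the background. Of the 12 genes with H3K4me3 the share was 25%. Pluripotency factors had 2 of 25 (8.0%), Tbx3 and Zfp281, and Hox genes 2 of 39 (5.13%), Hoxa5 and Hoxa6, which shared 1 site of 312 bp. Immediate early genes had 2 of 22 (9.09%), Myc (128 bp) and Egr1 (92 bp), both transcription factor genes that respond quickly to growth signals. The shares of the pluripotency, Hox and immediate early lists were near or under the 9.00%, on few genes. Of their genes with H3K4me3 the shares were 8.70, 8 and 10%, each under the 15.5% of marked genes.

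Histone genes had 1 of 64 (1.56%, 0.276 to 8.33%), H3c6, with an interval below the 9.00%, although 36 of them had H3K4me3 at an end. Olfactory receptor genes, which serve sensory neurons of the nose, had 2 of 1100, Olfr658 and Olfr95, and only 5 had H3K4me3. Genes of differentiated tissues had 3 of 29 (10.3%), among them Apoa1, a lipoprotein gene (250 bp), and Myod1, a muscle regulator (80 bp), out of 9 with H3K4me3.

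**Figure D5:**
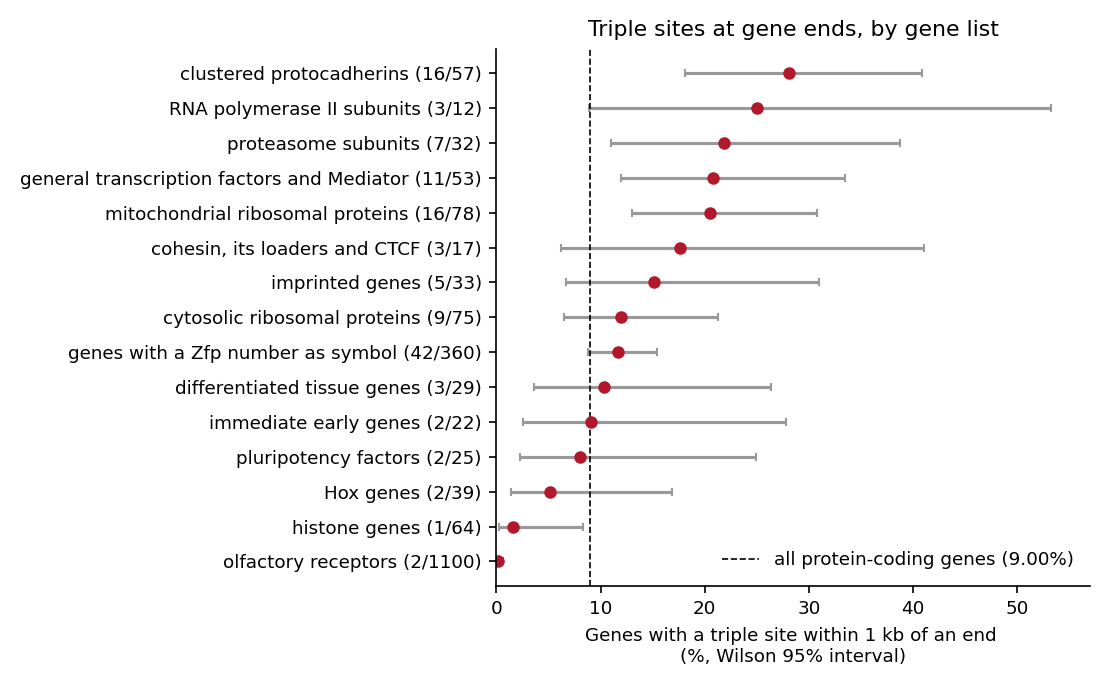
Share of protein-coding genes (%) with a triple site within 1 kb of an end, for 15 gene lists, with Wilson 95% intervals that cover counting error only. The dashed line is the 9.00% of all autosomal protein-coding genes, and numbers in brackets are genes with a site over genes in the list.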

How the data were processed

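The authors deposited each peak list as chromosome, start and end, so each peak is only a position and a length in bp (unit other). Per the submitters' processing notes the build was mm10, and MACS2, Bowtie2 2.4.5, bedtools 2.30.0 and Picard 2.27.4 were used. How peaks were called (settings, controls) is not given in the sources used here. By its name, the CTCF list is a union. It belongs to the second of the CTCF libraries, and a list of the first was not analysed here.

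The 19 autosomes were used, and an overlap counted from 1 bp (checked with bedtools 2.31.1). Software was Python 3.11.15, pandas 2.3.3, numpy 2.4.6, scipy 1.17.1 and matplotlib 3.10.9. The code was tested on simulated data. Genes came from RefSeq tables of GRCm38.p6 (20665 protein-coding, 12408 lncRNA, outermost ends without strand). Starts, strands and sequences came from its promoter table, which has none on chromosome 18. Exons and introns were not analysed here. Shares carry Wilson 95% intervals. With 1 list per antibody no test over samples was possible, and alternatives varied overlap, peaks kept, peak width, H3K4me3 merging, gene window and genes used.

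The sites and gene lists were chosen with earlier results of these data known. Named were the 10 longest RAD21 peaks, the 10 widest H3K4me3 peaks and the 10 with the most sites, the 5 sites farthest from genes, the 5 longest in the central part, across an edge and between paired ends. In each list all genes with a site were named up to 6, otherwise the 4 with the longest RAD21 peaks, and the first 2 without, some of which the text leaves out. A few genes that these rules select are not reported here. Steap1 was named because its promoter lies under the site at Gm46900. The histone list was renamed after the files were read, because it also holds H1f0, and its members did not change.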

Additional observations from a re-analysis of the deposited data

How the results depend on the processing

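Alternatives were run for the number, position, lengths, gene ends, gene spacing, genes and core share of the triple sites. Most of these are single values, which have no direction to turn. The differences from RAD21 without CTCF, in the central part and across an edge, kept their sign in each alternative. Core strand, the side of RAD21 against CTCF, gene lists and differences between classes in length and gene spacing had no alternatives. The number of sites depended on the overlap rule. It was 2005 with at least 50% of the shorter peak shared, 1532 with the RAD21 midpoint inside both peaks, 880 with peaks longer than the median of their list, and 1132 with all peaks resized to 200 bp, against 3061. The longer peaks also left 704 genes with a site, against 1859. The central part held 16.3% by the CTCF midpoint and 26.4% of midpoints inside H3K4me3, against 17.8%. RAD21 crossed an edge at 60.3% when resized to 200 bp and at 62.2% with H3K4me3 peaks up to 500 bp apart merged, against 66.1%. The median RAD21 length was 188 bp under the midpoint rule, and the median H3K4me3 length was 780 bp with 50% overlap and 819 bp after merging. Sites at a gene end made up 49.9% at 500 bp, 72.0% at 2.5 kb, 55.5% for protein-coding ends and 49.4% for starts, so they were not always a majority. Those with 2 or more genes made up 14.1% for protein-coding genes, 19.3% at 500 bp and 32.2% at 2.5 kb. The cause of these moves was not tested.

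Alternatives chosen after seeing the data compared the classes at RAD21 lengths of 150 to 250 bp, where the difference in the central part was -15.3 points and the difference across an edge 26.1. The latter was 20.8 with RAD21 resized to 200 bp. Past the upstream edge lay 26.9% by the CTCF midpoint. Past the downstream edge lay 7.10% with lncRNA starts added, 3.59% within 500 bp of a start and 4.12% after merging. For CTCF peaks wholly inside a promoter, 31.5% held the core. Of all alternatives, 20 stayed within the interval or 1.5 times the count, 22 moved and 5 gave a count under that. No paired analysis was possible because each antibody has 1 list. Depth is unknown, so what it limits could not be measured.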
